A study of Mus musculus with 6 samples.

Results

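Cytosolic ribosomal protein genes were read in whole-brain expression profiles of mice heterozygous for a knockout of periphilin (Pphln1) and of wild-type littermates. The members were all probe sets that the platform annotation gives to exactly 1 gene with a symbol of the form Rpl or Rps plus a number (with a, x or l allowed after it), or Rplp0 to Rplp2. The form of the symbol alone served to keep out pseudogenes and the ribosomal S6 kinases, without a filter on gene type. The rule found 98 probe sets of 45 genes among the 45101 probe sets of the array, 24 genes of the large subunit and 21 of the small subunit. RefSeq lists 80 protein-coding mouse genes with such a symbol, and 36 of them had no member probe set. A further 110 probe sets carry the name of such a gene beside other genes and were therefore not members.

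The study compared 3 heterozygous periphilin+/- knockout mice with 3 C57BL/6 wild-type littermates, all male and 2 months old. Each snap-frozen whole brain gave 1 biotin-labelled cRNA made with an oligo(dT) primer and hybridised to an array of its own. How the allele was made, where it disrupts the gene and whether the heterozygous mice share the full C57BL/6 background are not given in the sources used here. Periphilin belongs to HUSH, a chromatin complex that directs repressive histone methylation to retroelements. The 6 samples come from 6 animals.

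A ribosome consists of ribosomal RNA and a fixed set of proteins, with the decoding centre on the small subunit and the peptidyl transferase centre and exit tunnel on the large one. Because each protein is needed once per particle, except for the stalk proteins, the genes are transcribed together at high rates in nearly every cell. Their messages typically begin with a terminal oligopyrimidine (TOP) tract, a cytosine followed by further pyrimidines, through which mTORC1 and the RNA-binding protein LARP1 control translation. Neurons carry ribosomal protein messages in the soma and also in their processes.

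Some of the gene starts show that tract. The stretches below are from RefSeq promoters of assembly GRCm38.p6 and run from 45 bases before the annotated start to 15 bases from it on. Of the 45 genes, 39 had an entry, with 47 annotated starts. At 8 of the 47 starts (17.0%) the start base was a C followed by at least 4 pyrimidines (C or T), against 2.51% of all 32851 promoters. A run of 8 pyrimidines within 10 bases of the start was present at 14 (29.8% against 7.43%). The motif CCGGAAG, the core bound by ETS-family factors such as GABP, was searched on both strands over 300 bases and occurred at 19 of the 47 starts (40.4%) against 8.86% of all promoters. AAGATGGC, part of the YY1 motif, occurred at 3 starts (6.38% against 2.75%) and TATAAA at 5 (10.6% against 13.6%), each also on both strands. Matches can overlap, since the ends of CCGGAAG and of TATAAA can both share letters with the start of AAGATGGC. Rps6, Rps27, Rps9 and Rpl41 are shown because their probe sets hold the widest genotype differences of the family, and Rpl35, Rps10, Rps18 and Rpl38 because their starts carry the tract. Capitals mark the pyrimidine tract where it begins at the annotated start with a C, and any CCGGAAG.
Rps6 (chr4:86857353-86857412, minus strand): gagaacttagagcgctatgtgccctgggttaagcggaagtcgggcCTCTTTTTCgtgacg
Rps27 (chr3:90213634-90213693, minus strand): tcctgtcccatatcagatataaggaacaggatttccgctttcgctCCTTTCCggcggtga
Rps10 (chr17:27635230-27635289, minus strand): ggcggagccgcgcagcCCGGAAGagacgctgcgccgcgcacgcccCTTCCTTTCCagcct
Rps18 (chr17:33955651-33955710, minus strand): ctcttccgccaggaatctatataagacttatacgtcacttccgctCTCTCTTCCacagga
Rpl35 (chr2:39005117-39005176, minus strand): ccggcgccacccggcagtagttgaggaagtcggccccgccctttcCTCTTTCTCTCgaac
Rpl38 (chr11:114668535-114668594, plus strand): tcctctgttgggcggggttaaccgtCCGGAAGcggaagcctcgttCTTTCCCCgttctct
Rps9 (chr7:3703996-3704055, plus strand): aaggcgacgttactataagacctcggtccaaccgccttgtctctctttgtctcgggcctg
Rpl41 (chr10:128549154-128549213, minus strand): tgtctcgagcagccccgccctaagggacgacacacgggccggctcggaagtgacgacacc

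The values are linear probe-set signals, and in the deposited table the mean of the central 96% of them was 150.0 on every array. Signals of different probe sets depend on their probes and do not rank transcripts. Array medians lay between 31.0 and 34.4. At 1434822_at, Pphln1 read 299.7 ± 12.6 in wild-type brains and 319.8 ± 44.5 in heterozygous brains (SD, n = 3 each) (log2 difference 0.08, SE 0.11), and 37.2 ± 6.91 against 52.3 ± 9.50 at the dimmer 1435766_at (-0.36, SE 0.18). Neither probe set passed the test (limma adjusted p = 0.969 and 0.956), although at 1435766_at every heterozygous brain (30.6, 44.4 and 36.6) lay below every wild-type brain (63.2, 47.3 and 46.3). Markers of neurons, astrocytes, oligodendrocytes, microglia, endothelium and choroid plexus were measured, and the summed signal of each list overlapped between genotypes. Of the 5 blood markers only Alas2 was above the dim limit, at 23.2 to 63.6. The 5 pituitary markers Prl, Gh, Pomc, Cga and Lhb stood apart, with a sum of 21194 for wild type 1, 6685 for heterozygous 3, and 170.4 to 845.8 for the remaining brains. In whole brain, fewer cells of a type and less RNA per cell cannot be told apart.

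Ribosomal protein signals were high, and no member passed the test for a genotype difference. Differences are on the log2(signal + 16) scale throughout, which understates the change of dim probe sets. Of the 98 member probe sets, 86 probe sets of 42 genes exceeded the limit for dim signals, a signal of 18.4, and were tested. Of these, 59 had a mean above 1000, which 7.97% of all tested probe sets reached, 11 lay between 200 and 1000, and 16 lay below 200. None of the 86 passed an adjusted p of 0.05 in limma, where 4 of all 27022 tested probe sets did (0.0148%), and the members' adjusted p lay between 0.956 and 0.999. At an unadjusted p below 0.05 there were 4 members, which is 4.65% of the members against 4.83% of all tested probe sets. Of these 3 were higher in heterozygous brains (Rps9 at 1434624_x_at and Rpl41 at 1454639_x_at and 1422623_x_at), where 2.43% of all probe sets were, and Rps6 was lower (2.4% of all). Without wild type 1 it was 2 of 86 members, against 4.02% of all probe sets. Without wild type 2 it was 7 of 86 (against 6.07% of all), and without heterozygous 3 it was 9 of 86 (against 5.41% of all). The genotypes did not overlap at 3 members (3.49%), against 10.2% of all tested probe sets. At 2 of them (Rpl41 1454639_x_at and Rps9 1426958_at) the heterozygous brains were higher (5.43% of all), and at 1 (Rps3 1455600_at) they were lower (4.81% of all).

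In sign, most members were slightly higher in heterozygous brains. With each gene taken at its brightest probe set, 31 of 42 genes were higher in sign, against 51.9% of all 13024 tested genes. The median log2 difference was 0.05, against 0.01 over all tested genes, and the quartiles of the member genes were -0.01 and 0.10. Among the 22 large-subunit genes 17 were higher (median 0.07), and among the 20 small-subunit genes 14 were (median 0.04). Among the 32 genes with a brightest probe set above 1000 there were 27 higher in sign, against 56.5% of all tested genes above 1000. These sets share only the lower limit and were not matched for signal. The differences are small beside their errors, since the median standard error of the 42 genes was 0.10. When arrays were quantile normalised, the count of higher genes was 23 of 42. It was also 23 without heterozygous 2, and 35 without heterozygous 3 and wild type 1, the brains highest in pituitary markers.

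**Figure D1:**
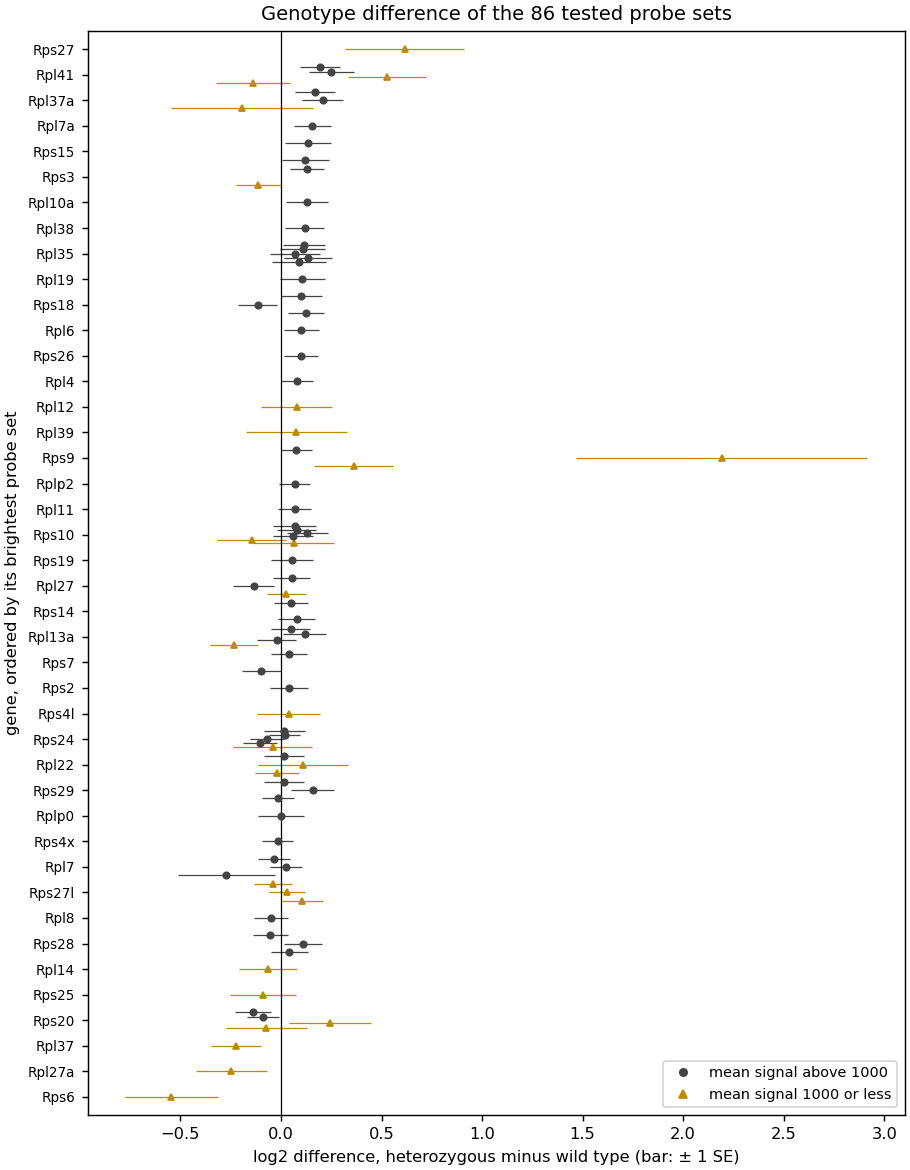
Log2 difference (heterozygous minus wild type, horizontal axis) of the 86 tested probe sets, grouped by gene, with bars of 1 SE from the limma fit. Circles are probe sets with a mean signal above 1000 and triangles those at or below it. Most circles lie close to 0, while the wide differences (Rps9 at 2.19, Rps27 at 0.61, Rps6 at -0.54) belong to triangles.

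The level of the whole family moved between brains more than between genotypes. Each gene was centred on its mean over the 6 brains, and the 42 centred values were averaged per brain. The level was 0.07 in heterozygous 1, 0.08 in heterozygous 2 and -0.09 in heterozygous 3, and -0.02, 0.04 and -0.08 in wild type 1, 2 and 3. Both genotypes thus contained brains above and below the mean, and the genotypes overlapped. The heterozygous mean was 0.019 ± 0.093 (SD, n = 3) and the wild-type mean -0.019 ± 0.058 (n = 3), a difference of 0.037 that is smaller than the spread within either genotype. Under quantile normalisation this difference was -0.00083. Without heterozygous 1 it was 0.013, without heterozygous 2 it was 0.0076 and without wild type 3 it was 0.0084. It reached 0.091 without heterozygous 3, 0.067 without wild type 2, and 0.089 without heterozygous 3 and wild type 1.

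**Figure D2:**
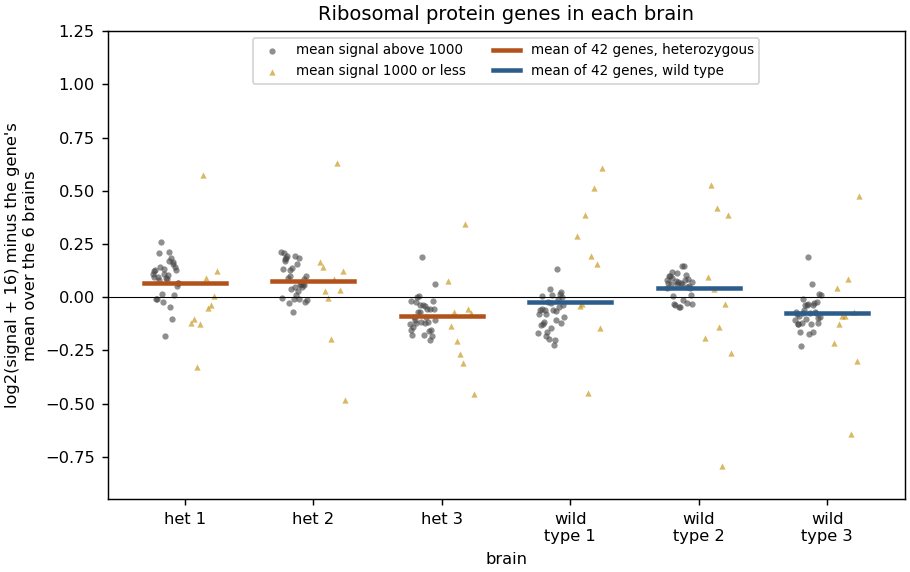
Log2(signal + 16) of each of the 42 member genes at its brightest probe set, minus the gene's mean over the 6 brains (vertical axis), for each brain. Circles are genes with a mean signal above 1000, triangles those at or below it, and horizontal bars the mean of the 42 genes, 0.07, 0.08 and -0.09 in heterozygous brains and -0.02, 0.04 and -0.08 in wild-type brains.

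The 32 genes brighter than 1000 shared this pattern. Their mean level was 0.086, 0.085 and -0.080 in heterozygous 1, 2 and 3 and -0.073, 0.052 and -0.071 in wild type 1, 2 and 3. Heterozygous 1 and 2 and wild type 2 were high, and heterozygous 3 and wild type 1 and 3 low. In those high brains 26, 25 and 25 of the 32 genes exceeded their own mean, and in heterozygous 3, wild type 1 and wild type 3 it was 4, 6 and 4. The highest value of a gene fell on heterozygous 1 for 16 and on heterozygous 2 for 12 of the 32, the lowest on heterozygous 3 for 14 and on wild type 1 for 10. The mean of the 17 bright large-subunit genes ranged over 0.19 between brains, as did that of the 15 bright small-subunit genes. The 10 genes at or below 1000 did not follow the same order and were highest in wild type 1, at 0.15.

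Other measures of the arrays moved with this level in part. The 234 other genes with a brightest probe set above 3000 had mean levels of 0.105, 0.018 and -0.060 in heterozygous 1, 2 and 3 and -0.050, 0.029 and -0.042 in wild type 1, 2 and 3, the same brains above and below 0 as for the bright ribosomal protein genes. The 1275 other genes above 1000, the limit used for the members, had the same brains above and below 0, although heterozygous 2 lay at only 0.0018. Their level ranged over 0.051 between brains, against 0.166 for the 32 bright members. The heterozygous mean level exceeded the wild-type one by 0.061 in the 32 bright members. This difference was 0.042 in the other genes above 3000 and 0.009 in the other genes above 1000. Quantile normalisation, which gives every array the same distribution of values, narrowed the range of the 32 bright members from 0.166 to 0.075. The 3′ over 5′ signal ratio of the beta-actin control was 1.60 to 1.72, with overlap between the genotypes. That of the Gapdh control did not overlap, at 0.747, 0.748 and 0.755 in heterozygous and 0.713, 0.731 and 0.729 in wild-type brains. The 3′ control for 18S ribosomal RNA, the RNA of the small subunit, read 109.8, 157.7 and 162.3 in heterozygous 1, 2 and 3 and 113.9, 236.9 and 123.3 in wild type 1, 2 and 3, and so was lowest in a brain with a high ribosomal protein level and highest in another. The cRNA was primed with oligo(dT), so this control need not follow the amount of ribosomal RNA. Of the low brains, heterozygous 3 and wild type 1 were also the brains with the most pituitary marker signal, while wild type 3, at 768.6, was not. The choroid plexus marker sum split the brains as the level did. It was 12134, 10631 and 10669 in heterozygous 1 and 2 and wild type 2, and 9437, 9744 and 9203 in heterozygous 3 and wild type 1 and 3. No other marker sum did so. The Gapdh 3′ control read 8249, 7004 and 6756 in those high brains and 6742, 6094 and 6318 in the low ones. The part of these measures in the level, or in the signs of the genotype differences, was not tested.

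**Figure D3:**
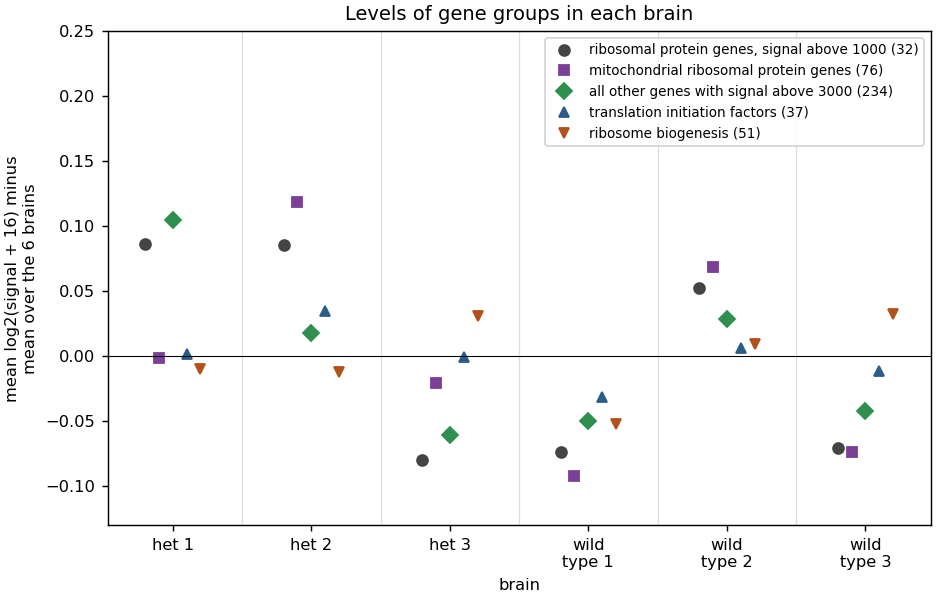
Mean centred log2(signal + 16) (vertical axis) of 5 gene groups in each brain, each gene centred on its mean over the 6 brains. Bright ribosomal protein genes (circles) and all other genes with a signal above 3000 (diamonds) lie above 0 in heterozygous 1, heterozygous 2 and wild type 2 and below 0 in the other brains.

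Among large-subunit genes, Rpl41, which encodes a very short basic peptide, had the highest difference among probe sets above 1000. At 1455578_x_at it read 7312, 6543 and 5807 in heterozygous 1, 2 and 3 and 5370, 5947 and 5790 in wild type 1, 2 and 3. Heterozygous 1 and 2 were highest, and heterozygous 3 lay below wild type 2. The log2 difference was 0.20 (SE 0.10, 95% confidence interval -0.02 to 0.41). At 1422623_x_at the difference was 0.25 (SE 0.11), from 3003 ± 379 in wild-type to 3568 ± 343 in heterozygous brains (n = 3 each), again with overlap. The dim 1454639_x_at read 59.7, 57.0 and 81.2 in heterozygous and 54.5, 30.7 and 38.4 in wild-type brains, without overlap, and lay at 0.53 on the log2 scale (SE 0.19, limma adjusted p = 0.956). With 3 brains per genotype no exact permutation test can go below 0.1, the value reached here. Its value was 0.31 with a pseudocount of 64. The dimmest, 1433530_at, lay at -0.14 (SE 0.18).

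Rpl37a, another small large-subunit protein, gave similar values at its bright probe sets. At 1416217_a_at it read 5711, 5414 and 4632 in heterozygous and 4374, 5023 and 4233 in wild-type brains, a log2 difference of 0.21 (SE 0.10). Heterozygous 3 lay below wild type 2, so the genotypes overlapped. At 1460543_x_at the difference was 0.17 (SE 0.10). The dim 1416218_x_at, at -0.19 (SE 0.35), read 59.3 in heterozygous 3 and 145.9 to 225.7 in the other brains. Without heterozygous 3 it lay at 0.35, and without wild type 1 as well at 0.31.

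Rpl35 gave the closest agreement among genes with 3 or more tested probe sets. Its 5 probe sets had means of 2564 to 3716 and log2 differences of 0.07 to 0.13. On each of the 5 the heterozygous 2 value was highest, with 4211 beside values of 3299 to 4016 at 1434231_x_at. Without heterozygous 2, the differences of 1416243_a_at and 1436840_x_at turned to -0.026 and -0.074. Rpl7a lay at 0.16 (SE 0.09), and Rpl38, with 7935 ± 903 in heterozygous and 7285 ± 323 in wild-type brains (n = 3 each), lay at 0.12 (SE 0.10). The stalk proteins Rplp0 and Rplp2, which recruit elongation factors to the ribosome, lay at 0.00 (SE 0.11) and 0.07 (SE 0.08). Rplp2 was also among the 3 genes that varied least over the 6 brains, with an SD of 0.06.

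On the lower side of the large subunit, the lowest value was -0.27 (SE 0.24), at Rpl7 1426163_x_at. It read 812.3, 1085 and 925.2 in heterozygous and 1794, 1081 and 743.8 in wild-type brains. Wild type 1 stood above all others and wild type 3 below them, so the genotypes overlapped. This probe set is outside the rule for named genes and was chosen after its values were seen. The other Rpl7 probe sets lay at -0.04 and 0.03. Rpl13a, which also acts outside the ribosome in translational silencing, read 538.4, 699.7 and 718.4 in heterozygous and 710.0, 849.2 and 739.1 in wild-type brains at 1433928_a_at (-0.23, SE 0.12). Its other probe sets lay at -0.02, 0.12 and 0.05. Rpl37 had 1 probe set, at -0.22 (SE 0.12), with 645 in wild type 1 and 421.8 to 502.9 elsewhere. Rpl27a was at -0.25 (SE 0.18) by its single tested probe set, with 178.8 in wild type 2 and 91.7 to 121.9 elsewhere. Rpl27 was at -0.14 (SE 0.10) by 1453096_x_at, and its brightest probe set lay at 0.05. Each of these probe sets had overlapping genotypes.

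In the small subunit, Rps9, a protein at the entry of the messenger RNA channel, showed the widest difference and also the widest disagreement between probe sets. At 1434624_x_at it read 716.2, 815.7 and 1096 in heterozygous 1, 2 and 3, 969.1 in wild type 2, and 67.0 and 70.8 in wild type 1 and 3. The signal thus took a high and a low state, with wild type 2 in the range of the heterozygous brains and the genotypes overlapping. The log2 difference was 2.19 (SE 0.72, 95% confidence interval 0.60 to 3.79, limma adjusted p = 0.956). Without wild type 2 it was 3.37 and passed the test (limma adjusted p = 3.18e-05). Over the other alternatives the limma adjusted p was 0.571 to 0.999, and without heterozygous 3 and wild type 1 the difference was 1.42. The second, 1433689_s_at, did not share these states, with 2384, 2261 and 2376 in heterozygous and 2138, 2225 and 2296 in wild-type brains (0.08, SE 0.08). It was among the 3 steadiest member genes over the 6 brains. The dim 1426958_at read 30.1, 22.0 and 36.5 in heterozygous and 20.6, 21.8 and 15.3 in wild-type brains, without overlap but with heterozygous 2 and wild type 2 nearly equal (0.36, SE 0.20).

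**Figure D4:**
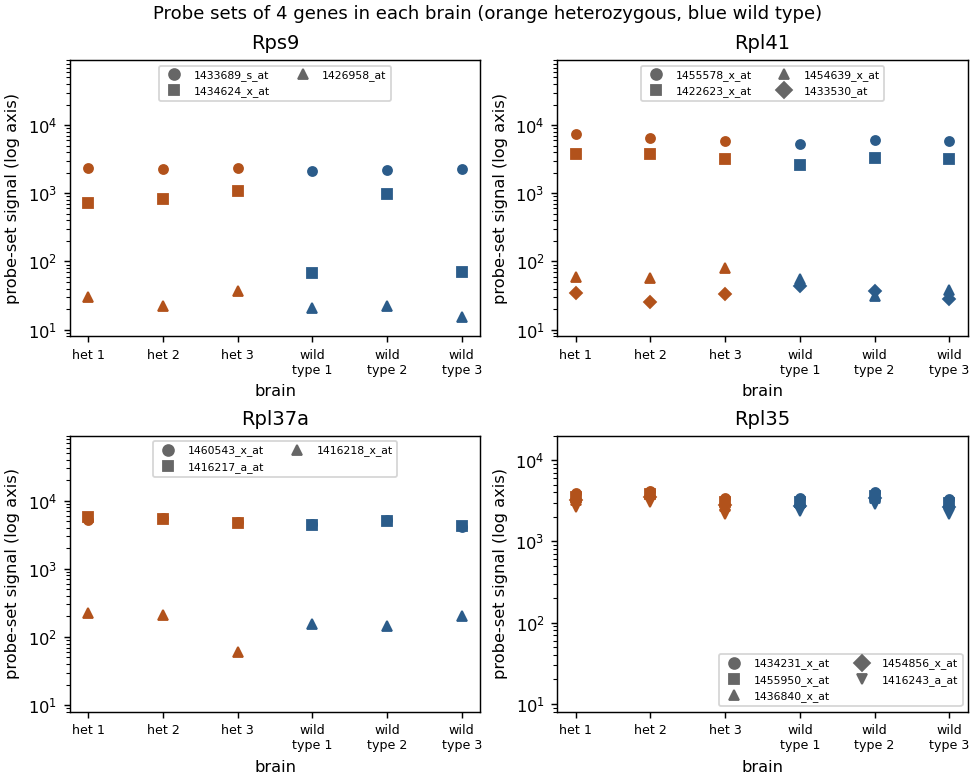
Signal of every tested probe set of Rps9, Rpl41, Rpl37a and Rpl35 in each brain, on a logarithmic vertical axis, with heterozygous brains in orange and wild-type brains in blue. At Rps9, 1434624_x_at drops to 67.0 and 70.8 in wild type 1 and 3 while 1433689_s_at stays between 2138 and 2384, and all 5 Rpl35 probe sets are highest in heterozygous 2, then wild type 2, then heterozygous 1.

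Rps27 and Rps6 stood at opposite ends of the brightest-probe-set values, both through dim signals. Rps27, a zinc-binding protein of the small subunit, read 119.9, 202.0 and 162.7 in heterozygous and 184.9, 65.4 and 74.2 in wild-type brains at 1460699_at. Wild type 1 lay among the heterozygous values, so the genotypes overlapped. The log2 difference was 0.61 (SE 0.30, limma adjusted p = 0.956), and 1.02 without wild type 1 (limma adjusted p = 0.632). Rps6, the substrate of the S6 kinases downstream of mTORC1, read 132.5, 81.4 and 83.2 in heterozygous and 191.4, 97.4 and 173.5 in wild-type brains at 1416142_at. Wild type 1 and 3 were highest, and heterozygous 1 lay above wild type 2. The log2 difference was -0.54 (SE 0.23, limma adjusted p = 0.956), and ranged from -0.81 without wild type 2 to -0.38 without wild type 1 and -0.29 without heterozygous 3 and wild type 1. A second Rps6 probe set was below the dim limit, with means of 8.84 and 13.2. For both genes the difference thus rests on a single dim probe set.

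Other small-subunit genes differed little. Rps20 was lower at its bright probe sets, at -0.14 (SE 0.09) and -0.09, with wild type 1 highest at 3993 and heterozygous 3 lowest at 3263 on 1456373_x_at, and lay at 0.24 (SE 0.21) and -0.07 (SE 0.20) by its dim ones. Rps24, for which 5 probe sets were tested, ranged from -0.10 (SE 0.09) to 0.02. Rps18 lay at -0.12 (SE 0.10) by 1455572_x_at and at 0.10 and 0.12 by its other tested probe sets. Rps29, with 9148 ± 1042 in heterozygous and 9032 ± 484 in wild-type brains (n = 3 each), lay at 0.01 (SE 0.10), and its other probe sets lay at 0.16 and -0.02. Rps28 lay at -0.05 (SE 0.09), 0.11 and 0.04. Rps3, which sits with Rps9 at the channel entry, was lower without overlap at its dim 1455600_at (-0.11, SE 0.11) and higher at the bright 1435151_a_at (0.13). Rps3 at 1455600_at is outside the rule for named genes and was chosen after its values were seen, being the third member without overlap between the genotypes.

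Members with a paralogue in the family were read separately where a probe set allowed it. Rps27l, the paralogue of Rps27 and a p53 target gene, lay at 0.11, 0.03 and -0.04 by its 3 tested probe sets (SE 0.09 to 0.10), with signals of 263.7 to 461.0. The X-linked Rps4x was the steadiest of the 42 genes, with 4351 ± 166 in heterozygous and 4398 ± 26.8 in wild-type brains (n = 3 each) and a difference of -0.02 (SE 0.08). Rps4l lay at 0.04 (SE 0.16), with 372.8 in wild type 2 and 225.5 to 307.9 elsewhere. Rpl39, which lines the exit tunnel, lay at 0.08 (SE 0.25), and was higher in heterozygous 1 and wild type 2, at 182.7 and 162.4, than in the others, at 81.6 to 109.4. Rpl39l and Rpl3l, paralogues known from testis and from muscle, were below the dim limit in brain, with means of 8.22 and 8.96. The dimmest tested genes, Rpl12, Rpl14, Rps25 and Rpl27a, had means of 59.9, 68.5, 72.1 and 121.6, and the first 3 lay at 0.08 (SE 0.18), -0.06 (SE 0.14) and -0.09 (SE 0.16).

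Probe sets of the same gene more often agreed on whether a brain was high or low than on the genotype difference. For 19 genes 2 or more probe sets were tested, 63 in all. The differences shared a sign in 4 of them (Rpl35, Rps9, Rps14 and Rps15, all higher), which is 21.1%, against 41.8% of 6157 other genes with 16562 probe sets. The median range of differences within a gene was 0.19 in both. With probe sets above 1000 alone, 15 genes had at least 2, of which 7 shared a sign (46.7% against 57.9% of 347 other genes). The median range was 0.12 against 0.10. In both comparisons the members had more probe sets per gene than the other genes. A larger number of probe sets is less likely to share a sign, and the shares were not matched for this. In these 15 genes, all bright probe sets lay on the same side of their own mean for 66 of 90 gene and brain pairs (73.3%), against 56.3% in the other genes. Over all tested probe sets of the 19 genes it was 55 of 114 pairs (48.2%), against 42.1% in the other genes. Probe sets ending in _x_at, which hold probes that can bind other transcripts, had a median difference of 0.04 (38 tested, 23 higher), and those ending in _a_at, which read several transcripts of 1 gene, 0.07 (26 tested, 21 higher).

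Genes that work beside the ribosome were followed in fixed lists, and none of their members passed the test over all probe sets. Of 5 measured ribosomal protein genes outside the naming rule all were higher in sign (median 0.07). Fau, a fusion of a ubiquitin-like protein and a small-subunit protein, was highest at 0.20 (SE 0.11). Rpl7l1 lay at 0.07 (SE 0.09), Rpl22l1 at 0.07 (SE 0.13) and Rpsa at 0.04 (SE 0.09). Their mean level was above 0 in the same 3 brains as that of the bright members, at 0.07, 0.13 and 0.09. Of the 76 mitochondrial ribosomal protein genes, 58 were higher in sign (median 0.08), against 51.9% of all tested genes. At an unadjusted p below 0.05 in limma, 4 of the 76 were higher and 2 lower, a limit that 4.41% of all tested genes reached. Mrpl35 at 0.28 (SE 0.08) and Mrpl49 at 0.33 (SE 0.13) were highest by test statistic, and Mrpl33 at -0.47 (SE 0.19) and Mrps14 at -0.19 (SE 0.08) lowest. Mrpl35 read 499.6, 477.1 and 481.9 in heterozygous and 383.2, 402.8 and 404.6 in wild-type brains, and Mrps14 read 839.5, 903.8 and 861.9 against 927.1, 996.6 and 1052. Neither overlapped between genotypes, the first higher and the second lower in heterozygous brains, where 10.2% of all tested probe sets did not overlap. Both were named for their extreme test statistics. Among the genes named from the lists, Rpl7l1, Etf1, Eif2s2, Eef1b2, Eef1d, Rrp9, Sesn2 and Eif4ebp2 did not overlap either.

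Translation factors ranged less between brains than the ribosomal proteins. The mean level of 37 initiation factors ranged over 0.066 between brains and that of 12 elongation factors over 0.062. That of the 42 ribosomal protein genes ranged over 0.166. These groups were not matched for signal. The 234 other genes above 3000 ranged over 0.165, and the 1275 other genes above 1000 over 0.051. Among initiation factors, 21 were higher and 16 lower in sign, from Eif3f at 0.21 (SE 0.10) and Eif2s2 at 0.17 (SE 0.08) to Eif1a at -0.13 (SE 0.11) and Eif1ax at -0.16 (SE 0.11). Among elongation and termination factors, 7 were higher and 5 lower, with the termination factor Etf1 at 0.18 (SE 0.09), Eef1a1 at 0.11 (SE 0.09), Eef1b2 at -0.19 (SE 0.09) and Eif5a2 at -0.22 (SE 0.12). Of 18 other genes with TOP messages, a list that shares members with both, 11 were higher in sign (median 0.06), with Eif3f and Fau highest and Eef1b2 and Eef1d (-0.15, SE 0.09) lowest by test statistic. Ribosome biogenesis genes were balanced, with 27 of 51 higher (median 0.00). By test statistic Rrp9 at 0.31 (SE 0.15) and Nob1 at 0.33 (SE 0.16) were highest and Riok2 at -0.39 (SE 0.16) and Rrs1 at -0.20 (SE 0.12) lowest. Of 25 genes that signal growth to these messages, 11 were higher (median -0.02), with Sesn2 at 0.26 (SE 0.16), Lamtor1 at 0.16 (SE 0.11), Eif4ebp2 at -0.23 (SE 0.13) and Eif4ebp1 at -0.34 (SE 0.21).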

How the data were processed

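The deposited table gives the authors' linear intensity of each probe set on each array. The summarising software and detection calls are not given in the sources used here. Of 45037 probe sets other than the 64 controls, the platform annotation names 1 gene for 34945, and 34741 of these were updated by Entrez identifier to RefSeq symbols (GRCm38.p6). Intensities were transformed as log2(value + 16). Probe sets at or below the 40th percentile of the mean log2 value were left out, and 27022 were tested with limma (version 3.58.1, R 4.3.3; lmFit, eBayes with intensity trend, no covariate). P-values are two-sided and adjusted by Benjamini-Hochberg across these probe sets, with 0.05 as threshold. Single values also had two-sided exact permutation tests. The fit was tested on simulated data. Alternatives changed the pseudocount, filter, normalisation, array weights, variance model, probe-set choice and brains included. For values per gene, the tested probe set with the highest mean was used. Named members are the 8 highest and 8 lowest by moderated t, the 4 brightest and 4 dimmest genes, the genes with extreme spread or probe-set range, Rps6, Rps27 and paralogues, and 2 per direction of each list. The members and lists were chosen with earlier results of these data known. Array number, 3 per genotype, limits precision.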

Additional observations from a re-analysis of the deposited data

How the results depend on the processing

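The count of members past the threshold was 0 in the main analysis and under every alternative except leaving out 1 brain at a time, where it was 0 to 1 (Rps9 at 1434624_x_at without wild type 2). At an unadjusted p below 0.05 in limma, 4 of 86 members became 2 to 9 of 86 with 1 brain left out (against 4.02% to 6.07% of all probe sets). With the replicate number as a block it was 7 of 86 (against 7.01% of all). Same-numbered brains deviated together by correlations of 0.082, 0.20 and -0.018, against -0.16 to 0.085 for brains of different numbers. With only 3 same-numbered pairs, these values cannot decide whether such brains share more than a number. Members without overlap between genotypes numbered 3 of 86 in the main analysis (against 10.2% of all probe sets) and 14 of 86 under quantile normalisation (against 10.3% of all). They numbered 1 of 86 under median centring (against 10.2% of all) and 1 of 79 with the dim limit at the 60th percentile (against 10.2% of all). With 1 brain left out they numbered 7 to 27 of 86 (against 18.7% to 22.4% of all). Without the brains highest in pituitary markers, heterozygous 3 and wild type 1, they numbered 30 of 86 (against 33.4% of all). Leaving out these 2 brains was chosen after seeing the data. The family difference of 0.037 was 0.0076 to 0.091 with 1 brain left out, -0.00083 under quantile normalisation and 0.034 to 0.061 under the others, the highest with genes above 1000 alone, which was chosen after seeing the data, and 0.089 without the brains highest in pituitary markers. Genes higher in sign, 31 of 42, were 23 to 33 with 1 brain left out. Several values changed sign. Some were not near 0 in the main analysis, such as Rpl37a 1416218_x_at at -0.19 and Rpl22 1416603_at at 0.11. Under quantile normalisation Rpl22 1453118_s_at lay at -0.0055, Rps24 at -0.055 (1436064_x_at) and -0.014 (1453362_x_at) and Rps29 at -0.10, which was -0.00056 with array weights. Without the brains highest in pituitary markers, Rpl22 1448398_s_at lay at 0.12, Rpl37a 1416218_x_at at 0.31, Rps24 1455195_at at 0.063, Rps25 at 0.12, Rps27l 1435429_x_at at 0.050, Rps28 at 0.0042 and Rps4x at 0.0020. With 1 brain left out, the ranges that crossed 0 were -0.0094 to 0.24 for Rpl12, -0.13 to 0.32, -0.10 to 0.052 and -0.066 to 0.089 for Rpl22, -0.026 to 0.22 and -0.074 to 0.19 for Rpl35, -0.49 to 0.35 for Rpl37a 1416218_x_at, -0.19 to 0.31 for Rpl39, -0.061 to 0.12, -0.0049 to 0.043 and -0.17 to 0.095 for Rps24, -0.18 to 0.041 for Rps25, -0.081 to 0.031 for Rps27l 1435429_x_at, -0.099 to 0.010 for Rps28, -0.055 to 0.11 for Rps29, -0.10 to 0.24 for Rps4l and -0.046 to 0.0067 for Rps4x. The cause of these changes was not tested.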
